A study of Homo sapiens with 16 samples.

Results

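SR proteins and hnRNPs are RNA-binding proteins that steer the choice of splice sites, and their genes were followed here in HepG2 cells, an established human liver cancer line, after siRNA against HCF-1. The members were the protein-coding entries of the deposited table whose symbol begins with SRSF and a digit or with HNRNP, together with TRA2A, TRA2B, SRRM1 and SRRM2. They came to 39 of 56969 Ensembl entries, 16 in the SR class and 23 in the HNRNP class. SRSF10 holds 2 of the SR entries under separate Ensembl identifiers, and HNRNPUL2-BSCL2 is a readthrough entry that shares exons with HNRNPUL2. A mean of at least 10 normalized counts over the 16 libraries was required for testing, and 38 members passed it. The exception was HNRNPCL1, listed at 0 to 6.50 normalized counts in the control libraries and at 0 to 5.43 in the HCF-1 siRNA libraries. Both SRSF8 entries are annotated as pseudogenes in the table and are therefore not members. One of them (ENSG00000271885) fell from a mean of 635 to 571 (log2 fold change -0.15, limma adjusted p = 0.0445), and the other did not pass.

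SR proteins carry RNA recognition motifs and a tail rich in arginine and serine, bind exonic enhancers and, once phosphorylated by SRPK and CLK kinases, help to bring spliceosome components to neighbouring splice sites. hnRNPs coat nascent transcripts, bind exonic and intronic silencers and often oppose SR proteins at the same exon, and several also act in RNA export, stability and translation. Many genes of both groups limit their own output by splicing in an exon that exposes the transcript to nonsense-mediated decay. The counts are per gene and do not separate such transcripts from productive ones.

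The 2 groups were HepG2 cultures transfected with control siRNA and HepG2 cultures transfected with HCF-1 siRNA, 8 libraries each, described by the labels as biological replicates, so p-values measure the spread between these libraries; whether they came from separate days is not stated. Every culture was reverse transfected with siPORT NeoFX, the transfection was repeated 2 days later, and RNA was taken 2 days after that. HCF-1, encoded by HCFC1, is a chromatin-bound cofactor of many promoter-binding factors. Its transcript went from a median of 5548 normalized counts in control libraries (4851 to 6878) to 3654 after HCF-1 siRNA (3112 to 4171), with no overlap, so the knockdown was partial at the RNA level (log2 fold change -0.61 ± 0.07 SE, limma adjusted p = 4.52e-06). Recovered reads came to 21030830 to 32820459 per control library and 25098840 to 43186890 per HCF-1 siRNA library. The hepatocyte markers fixed for HepG2 were high, with a summed level of 754812 to 825137 in control and 899248 to 1079418 after HCF-1 siRNA. Of these, 8 of 10 rose and 1 (FGB) fell, against 18.2% and 18.3% of all genes tested. The leukocyte gene PTPRC had a mean of 0.450 in control and 0.313 after HCF-1 siRNA, CD3E, HBB and KDR were at 0 in all 16, and LYZ, which HepG2 expressed at a mean of 29693 in control, made up most of the blood list. The summed blood cell markers ran from 26901 to 31719 in control and from 27930.4 to 34191 after HCF-1 siRNA (1 of 4 tested fell), the endothelial ones from 397 to 537 and from 265 to 421 (1 of 3 fell), and the mesenchymal ones from 5286 to 6888 and from 4055 to 5316 (2 of 5 fell). Over all genes tested 18.3% fell. Log2 fold changes were 0.64 for APOH, 0.63 for TTR, 0.58 for AFP and -0.50 for FGB among the hepatocyte markers. They were -0.32 for LAPTM5 (blood), -0.89 for ESAM (endothelial), and -0.83 for TAGLN and -0.56 for COL1A1 (mesenchymal). The part of these shifts in the results on splicing genes was not tested. As these are bulk RNA samples, more RNA of a gene per cell and more cells that express it cannot be told apart.

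To show the DNA in front of the members, the RefSeq promoter windows (build GRCh38.p14, 250 bases before to 50 after the start) of 4 members that passed the test are printed 5′ to 3′ on the gene's strand. SRRM2 is shown for its rank as the largest rise among members, SRSF4 and SRSF5 because they rose and hold the letters CCGGAAGT, and TRA2B because it fell and holds TTCCCGCC. Capitals mark those letters on either strand. The windows are chr16:2752388-2752687 (plus strand) for SRRM2, chr1:29181851-29182150 (minus strand) for SRSF4, chr14:69766892-69767191 (plus strand) for SRSF5 and chr3:185937965-185938264 (minus strand) for TRA2B.
SRRM2: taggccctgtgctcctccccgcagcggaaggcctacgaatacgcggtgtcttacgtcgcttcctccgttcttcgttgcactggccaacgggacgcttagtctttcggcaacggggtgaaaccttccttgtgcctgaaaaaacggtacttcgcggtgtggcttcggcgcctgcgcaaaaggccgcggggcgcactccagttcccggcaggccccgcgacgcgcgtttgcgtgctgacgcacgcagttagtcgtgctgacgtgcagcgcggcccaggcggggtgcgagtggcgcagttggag
SRSF4: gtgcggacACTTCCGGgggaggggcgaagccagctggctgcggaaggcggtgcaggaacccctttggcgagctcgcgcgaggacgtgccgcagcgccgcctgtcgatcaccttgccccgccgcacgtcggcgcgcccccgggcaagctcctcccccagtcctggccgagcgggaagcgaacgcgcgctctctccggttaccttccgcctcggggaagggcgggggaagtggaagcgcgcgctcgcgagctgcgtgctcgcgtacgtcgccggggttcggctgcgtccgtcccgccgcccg
SRSF5: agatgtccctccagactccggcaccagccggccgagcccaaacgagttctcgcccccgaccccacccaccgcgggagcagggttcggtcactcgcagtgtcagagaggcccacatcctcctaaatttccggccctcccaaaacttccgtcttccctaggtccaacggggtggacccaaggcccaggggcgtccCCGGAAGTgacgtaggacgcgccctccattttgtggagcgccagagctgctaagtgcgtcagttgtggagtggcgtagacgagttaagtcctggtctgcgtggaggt
TRA2B: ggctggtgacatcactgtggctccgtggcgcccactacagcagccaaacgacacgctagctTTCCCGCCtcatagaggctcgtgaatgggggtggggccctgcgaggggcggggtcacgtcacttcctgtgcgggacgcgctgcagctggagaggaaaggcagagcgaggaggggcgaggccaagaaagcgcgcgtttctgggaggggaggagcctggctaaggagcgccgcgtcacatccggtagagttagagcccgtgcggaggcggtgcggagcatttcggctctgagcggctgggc

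The table of promoters held 35 of the 38 member symbols in 50 windows, as some genes have several starts. Not matched were HNRNPA1, SRSF2 and TRA2A. A set of 6 motifs was searched as fixed letters on both strands, and none overlaps another in the windows of members. The site shared by the HCF-1 partners THAP11 and ZNF143 was in 0 of 17 SR windows and 0 of 33 HNRNP windows, against 1.89% of all 35116 windows. CCGGAAGT, the core of sites for ETS factors such as GABPA, was in 2 SR windows (11.8%) and 1 HNRNP window (3.03%, HNRNPD), against 4.14% of all. Of the members with it, SRSF4 and SRSF5 rose and HNRNPD did not pass (log2 fold change -0.06 ± 0.04). TTCCCGCC, the letters of an E2F site, was in 3 SR windows (17.6%) and 7 HNRNP windows (21.2%), against 3.16% of all. Overlapping windows that hold one and the same site account for 2 of the SR windows (SRRM1) and 2 of the HNRNP windows (HNRNPDL). The members with TTCCCGCC included genes that rose (SRRM1, HNRNPLL), fell (TRA2B) or did not pass (HNRNPA2B1, HNRNPDL, HNRNPF, HNRNPK, HNRNPUL1). AAGATGGC (YY1), TGACGTCA (CREB and ATF) and the palindromic NRF1 site were in 0 windows of either class, against 2.89%, 1.85% and 1.24% of all. Member windows were richer in G and C than the median window, with medians of 64.7% for SR and 66.3% for HNRNP against 58.7% for all windows. A match is a run of letters, and absence says only that those letters are not in the window.

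After HCF-1 siRNA, most SR genes rose and the HNRNP genes went both ways. Of 16 SR entries tested, 10 rose, 2 fell and 4 did not pass a limma adjusted p under 0.05, and of 22 HNRNP entries tested, 4 rose, 4 fell and 14 did not pass. Across all 16081 genes tested 36.6% passed, 18.2% rose and 18.3% fell, so the share of HNRNP genes that rose (18.2%) and that fell (18.2%) was at the level of the whole table, whereas 62.5% of SR entries rose and 12.5% fell. Among protein-coding genes with a mean of at least 1000, where calls are more frequent, 47.8% passed, 23.2% rose and 24.7% fell. The median log2 fold change was 0.18 over SR entries, 0.01 over HNRNP entries and 0.01 over all genes tested. With SRSF10 counted once and the readthrough entry left out, 9 of 15 SR genes rose and 2 fell, and 4 of 21 HNRNP genes rose and 3 fell. Every change was modest, from -0.18 to 0.38 among SR and from -0.31 to 0.27 among HNRNP entries, and 0 members changed by 1.5-fold. Changes of that size were also rare among other genes with a mean of at least 1000, where 144 of 5488 were called and reached it.

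**Figure D1:**
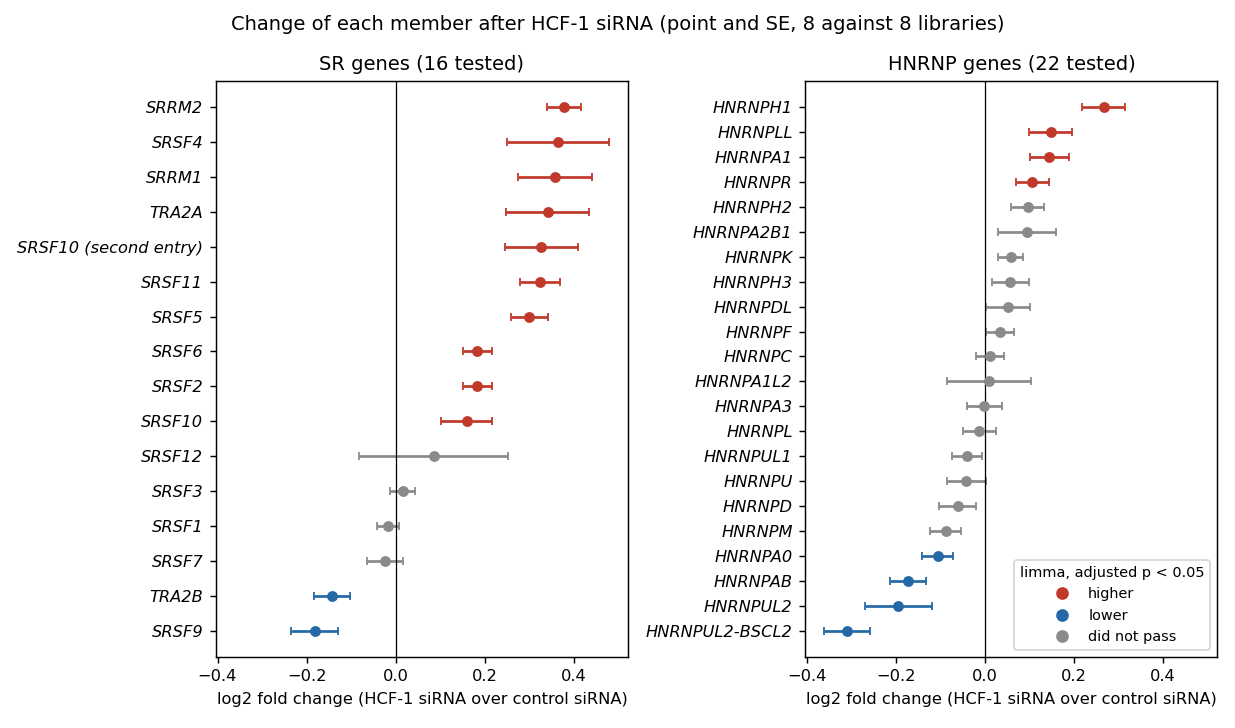
Log2 fold change (x axis, HCF-1 siRNA over control siRNA, on the log2(normalized count + 1) scale) of each member tested, with its standard error as a bar, 8 libraries against 8. Red points rose, blue points fell and grey points did not pass: 10 of 16 SR entries are red, whereas the 22 HNRNP entries spread on both sides of 0.

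SRRM2 and SRRM1 code for large proteins rich in serine and arginine that act as splicing coactivators and have no RNA recognition motif. SRRM2 ran from 15165 to 16316 normalized counts in control libraries (median 15749) and from 18897 to 23130.2 after HCF-1 siRNA (median 20110.1). All 8 HCF-1 siRNA libraries lay above all 8 controls; the log2 fold change was 0.38 ± 0.04 (limma adjusted p = 1.17e-06). Groups that do not overlap, with HCF-1 siRNA higher, were found for 5 of the 16 SR entries. The share was 4.59% of all genes tested, and 402 of 5488 genes with a mean of at least 1000. SRRM1 ran from 1989.8 to 2920.5 in control (median 2348) and from 2604 to 3401 after HCF-1 siRNA (median 2989). Its groups overlapped, with 5 of 8 HCF-1 siRNA libraries above the highest control, and it rose by a log2 fold change of 0.36 ± 0.08 (adjusted p = 0.0027). The ratio of SRRM2 to SRRM1 counts within a library had a median of 6.74 in control and 6.79 after HCF-1 siRNA.

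Among SR proteins with a pair of RNA recognition motifs, SRSF4, SRSF5 and SRSF6 rose, SRSF9 fell and SRSF1 did not pass. SRSF5 ran from 2599 to 3012 normalized counts in control (median 2709.6) and from 3091 to 3585 after HCF-1 siRNA (median 3424), without overlap (log2 fold change 0.30 ± 0.04, adjusted p = 2.83e-05). SRSF6 ran from 4724 to 5229 (median 5004) and from 5425 to 6047 (median 5639), also without overlap, for a smaller change of 0.18 ± 0.03 (adjusted p = 2.74e-04). Both are canonical SR proteins that bind exonic enhancers. SRSF4 ran from 1826 to 3001 in control (median 2317) and from 2255 to 3615 after HCF-1 siRNA (median 3033). It spread widely within both groups, with a coefficient of variation of 16.2% in control and 18.4% after HCF-1 siRNA, so its change of 0.37 ± 0.11 (adjusted p = 0.0182) is among the largest in size and the least precise of the SR rises. SRSF9 ran from 3438 to 4409 in control (median 3907) and from 3190.4 to 3676 after HCF-1 siRNA (median 3447). All 8 HCF-1 siRNA values lay under the control median and 4 lay under the lowest control (log2 fold change -0.18 ± 0.05, adjusted p = 0.011). In current annotation 46.2% of the exonic bases of SRSF9 also lie in GATC on the opposite strand. GATC itself had a mean of 1249.9 in control and 1147 after HCF-1 siRNA and did not pass (-0.12 ± 0.14). SRSF1, the founding member of the family, stayed between 7658 and 8189 in control and 7548 and 8108 after HCF-1 siRNA (-0.02 ± 0.02, adjusted p = 0.615). It varied by 2.21% within each group, so this was one of the most precisely measured members. RP11-159D12.5, which overlaps 56.6% of its exonic bases on the same strand, was low, with a mean of 27.4 in control and 37.7 after HCF-1 siRNA.

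Among SR proteins with 1 RNA recognition motif, SRSF2, SRSF10 and SRSF11 rose, and SRSF3, SRSF7 and SRSF12 did not pass. SRSF11, an SR protein that also contacts the spliceosome, ran from 2009 to 2402 in control (median 2295) and from 2651 to 3193 after HCF-1 siRNA (median 2782), without overlap (0.32 ± 0.05, adjusted p = 3.05e-05). SRSF2, which acts in splicing and in release of paused RNA polymerase II, ran from 6874 to 7749.6 (median 7167) and from 7752 to 8683 (median 8132). The lowest HCF-1 siRNA library thus lay just above the highest control (0.18 ± 0.03, adjusted p = 3.45e-04). MFSD11, which shares 36.7% of the exonic bases of SRSF2 on the opposite strand, did not pass (-0.05 ± 0.11). SRSF10 codes for a splicing repressor that is active when dephosphorylated. Its larger entry (ENSG00000188529) ran from 1439 to 1882 in control and from 1749.6 to 2111 after HCF-1 siRNA (0.16 ± 0.06, adjusted p = 0.0375). Its second entry (ENSG00000215699) ran from 471 to 717 and from 654 to 842 (0.33 ± 0.08, adjusted p = 0.00477). The sources do not say how reads were divided between the entries. Their sum ran from 2005 to 2545 in control (median 2318) and from 2404 to 2858 after HCF-1 siRNA (median 2653). The call of the larger entry ended in 14 of the 27 alternatives, including edgeR and leaving out control replicate 1, 4, 5 or 6 or else knockdown replicate 2, 4, 5, 7 or 8 (adjusted p 0.0217 to 0.0977 over all of them). SRSF3 and SRSF7, small SR proteins that link splicing to mRNA export, did not pass. SRSF3 ran from 7062 to 7482 in control (median 7226) and from 6882 to 7800.4 after HCF-1 siRNA (median 7283), with wide overlap (0.02 ± 0.03, adjusted p = 0.696), and SRSF7 changed by -0.02 ± 0.04. SRSF12, a repressor relative of SRSF10, was the member with the lowest level tested, at 45.8 to 75.9 in control and 41.2 to 107 after HCF-1 siRNA (0.09 ± 0.17), with a standard error wider than that of any other SR entry and coefficients of variation of 18.4% and 28.6%.

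The paralogs TRA2A and TRA2B, SR-like proteins that bind purine-rich enhancers, went in opposite directions. TRA2A ran from 893 to 1470.1 normalized counts in control (median 986) and from 1167 to 1507 after HCF-1 siRNA (median 1302), and rose by 0.34 ± 0.09 (adjusted p = 0.0079). Its overlap came from control siRNA replicate 1 alone, as the other 7 controls lay between 893 and 1162, and without that library the change was 0.41 (adjusted p = 2.66e-04). TRA2B ran from 4287 to 4848 in control (median 4623) and from 3899 to 4634 after HCF-1 siRNA (median 4096), and fell (-0.14 ± 0.04, adjusted p = 0.0104), with 7 of 8 HCF-1 siRNA libraries under the control median. The ratio of TRA2A to TRA2B counts within a library had a median of 0.213 in control (0.184 to 0.343) and 0.318 after HCF-1 siRNA (0.264 to 0.356). It is given as a description, since the pair was picked for its opposite calls.

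**Figure D2:**
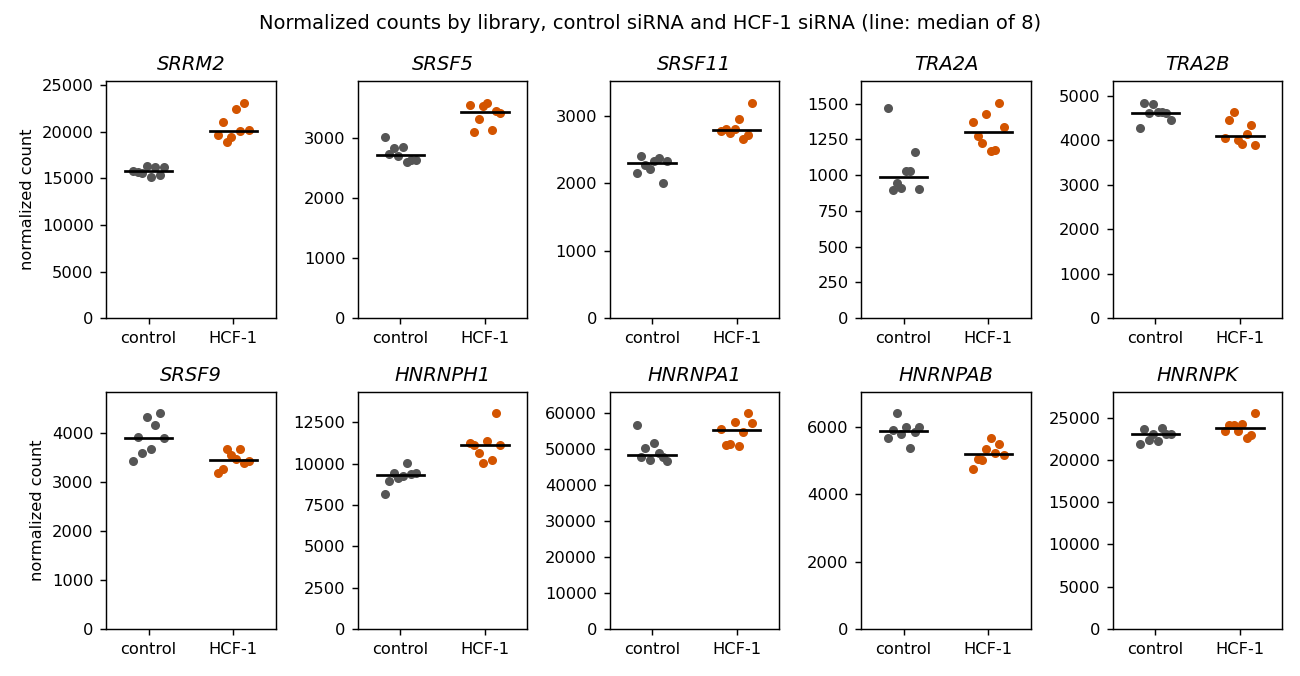
Normalized counts (y axis, from 0) of 10 members in each control siRNA (grey) and HCF-1 siRNA (orange) library, with the median of 8 libraries as a line. SRRM2, SRSF5, SRSF11 and HNRNPH1 show no overlap between groups, TRA2A overlaps through 1 high control and HNRNPA1 through 2, and TRA2B, SRSF9 and HNRNPAB are lower after HCF-1 siRNA.

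Among hnRNPs of the F and H type, which bind runs of G and act near splice and polyadenylation sites, HNRNPH1 rose and 3 others did not pass. HNRNPH1 ran from 8182 to 10015 normalized counts in control (median 9296) and from 10071 to 13053 after HCF-1 siRNA (median 11121). It was the only HNRNP entry whose groups did not overlap with HCF-1 siRNA higher (0.27 ± 0.05, limma adjusted p = 4.05e-04). That was 1 of 22, against 4.59% of all genes tested and 402 of 5488 with a mean of at least 1000. Leaving out HCF-1 siRNA replicate 7, the highest library of HNRNPH1, gave 0.23. Its close paralog HNRNPH2 ran from 1616 to 1750.3 and from 1680.4 to 1919.8 (0.10 ± 0.04, adjusted p = 0.0542). All 8 HCF-1 siRNA libraries of HNRNPH2 lay above the control median, and it passed in 8 of the 27 alternatives. The readthrough entry RPL36A-HNRNPH2, which overlaps 16.3% of its exonic bases, rose (0.34, adjusted p = 0.0117). HNRNPF (0.03 ± 0.03) and HNRNPH3 (0.06 ± 0.04) did not pass.

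Of the hnRNP A type, abundant proteins that bind silencers and limit exon inclusion, HNRNPA1 rose, HNRNPA0 fell and 3 did not pass. HNRNPA1, which had the most reads per exonic length of all members, ran from 46594 to 56701 in control (median 48269.7) and from 50814 to 59852 after HCF-1 siRNA (median 55161). All 8 HCF-1 siRNA libraries lay above the control median, and 3 above the highest control (0.14 ± 0.04, adjusted p = 0.0151). Many processed copies of HNRNPA1 exist in the genome, and those tested were low beside it. The highest, HNRNPA1P48, had a mean of 289.5 in control and 316 after HCF-1 siRNA. HNRNPA0, an intronless gene of the same type, ran from 5982 to 6431 (median 6134) and from 5349.9 to 6133 (median 5669), with every HCF-1 siRNA library under the control median (-0.11 ± 0.03, adjusted p = 0.0215). Its call was lost in 2 of the 27 alternatives, one of them with no filter on low values (adjusted p 0.00451 to 0.0713 over the alternatives). The ratio of HNRNPA1 to HNRNPA0 within a library had a median of 7.91 in control (7.55 to 8.82) and 9.75 after HCF-1 siRNA (8.37 to 10.6). This ratio is a description only, since its shift follows from the opposite calls of the pair. HNRNPA2B1 (0.09 ± 0.07), HNRNPA3 (0.00 ± 0.04 in size) and HNRNPA1L2 (0.01 ± 0.09) did not pass. HNRNPA3 has a well-covered processed copy, HNRNPA3P6, with a mean of 2545 in control and 2899.5 after HCF-1 siRNA (0.18 ± 0.10, not passing), and whether reads of parent and copy were mixed was not tested.

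Of the remaining HNRNP genes, HNRNPLL and HNRNPR rose, HNRNPAB and HNRNPUL2 with its readthrough entry fell, and the others did not pass. HNRNPLL, a regulator of alternative exons related to HNRNPL, ran from 1663 to 1964 in control (median 1813) and from 1807 to 2137 after HCF-1 siRNA (median 2048), with 5 of 8 above the highest control (0.15 ± 0.05, adjusted p = 0.0233). HNRNPR, an hnRNP with roles in splicing and RNA transport, ran from 6719 to 7805 and from 7159 to 8356 (0.11 ± 0.04, adjusted p = 0.0316). The calls of both were fragile. HNRNPLL lost it with no filter and with total-count scaling (adjusted p 0.00872 to 0.0749), and HNRNPR in 9 of the 27, including leaving out control replicate 1, 6 or 7 or else knockdown replicate 7 or 8 (adjusted p 0.0126 to 0.115). HNRNPAB, a relative of HNRNPD that binds AU-rich RNA, fell from a median of 5891 (5392 to 6412) to 5199.8 (4757 to 5677), with 6 of 8 HCF-1 siRNA libraries under the lowest control (-0.17 ± 0.04, adjusted p = 0.0026). HNRNPUL2, a relative of the scaffold protein HNRNPU, ran from 2795 to 4176 in control and from 2584 to 3365 after HCF-1 siRNA (-0.19 ± 0.07, adjusted p = 0.0491). This call ended in 13 of the 27 alternatives, including leaving out control replicate 1, 2, 3, 4, 7 or 8 or else knockdown replicate 1, 4, 5, 6 or 7 (adjusted p 0.0138 to 0.0994). HNRNPUL2-BSCL2 ran from 1807 to 2236 in control (median 1981) and from 1452 to 1790.4 after HCF-1 siRNA (median 1592). Like 5.23% of all genes tested and 453 of 5488 with a mean of at least 1000, it fell without overlap. The log2 fold change of HNRNPUL2-BSCL2 was -0.31 ± 0.05 (limma adjusted p = 1.53e-04). As 59.8% of its exonic bases lie in HNRNPUL2 and 40.2% in BSCL2, this entry is no measure of HNRNPUL2 of its own. COX20, on the opposite strand, overlaps 15.6% of the exonic bases of HNRNPU. HNRNPK, which binds C-rich RNA, had 22869 ± 677 normalized counts in control and 23813 ± 907 after HCF-1 siRNA (mean and SD, n = 8 each; 0.06 ± 0.03, adjusted p = 0.112). HNRNPU had 20432 ± 1335 and 19842 ± 1218 (-0.04 ± 0.04, adjusted p = 0.488). HNRNPM just missed the threshold (-0.09 ± 0.03, adjusted p = 0.0503), with all 8 HCF-1 siRNA libraries under the control median, and it passed in 10 of 27 alternatives. HNRNPC, HNRNPD, HNRNPDL, HNRNPL and HNRNPUL1 lay between -0.06 and 0.05.

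The class as a whole was summed up in each library by the mean log2(normalized count + 1) over the members tested. The SR mean ran from 11.3 to 11.39 in control (median 11.35) and from 11.44 to 11.57 after HCF-1 siRNA (median 11.52), without overlap. The HNRNP mean ran from 12.68 to 12.77 (median 12.72) and from 12.67 to 12.80 (median 12.72), with overlapping groups. The difference of the 2 means, which no scaling of a library can change apart from the pseudocount, ran from -1.43 to -1.31 in control and from -1.28 to -1.15 after HCF-1 siRNA. Its group mean was 0.16 higher after HCF-1 siRNA. Summed over all members, SR counts rose as a share of all normalized counts from a median of 0.244% to 0.269%, and HNRNP counts were 0.858% and 0.862%. The SR sum, which abundant genes dominate, went from a median of 68443 to 77133. Within it SRRM2 alone went from a mean of 15807 to 20591, and 2 SR entries were called lower. These values describe the members chosen and carry no test.

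**Figure D3:**
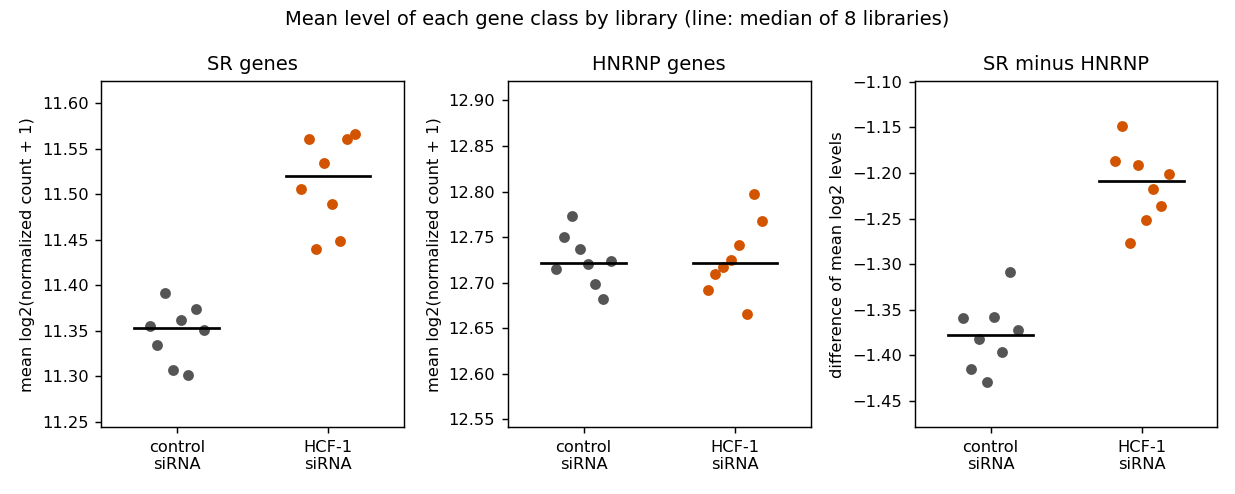
Mean log2(normalized count + 1) over 16 SR entries (left) and 22 HNRNP entries (middle) in each library, and their difference (right), with a line at the median of 8 libraries. The y axes do not start at 0 and span the same range, so the separation of the groups in the SR panel and its absence in the HNRNP panel can be compared.

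Per kilobase of annotated exons, HNRNP genes were the more abundant class. Lengths were the merged exons of a newer annotation on another build (GENCODE 29), found for 15 of 16 SR and 22 of 22 HNRNP entries tested. The median control level was 512 normalized counts per kilobase for SR and 1158 for HNRNP entries. HNRNPA1 led with 9729.8, followed by HNRNPK with 4472 and HNRNPAB with 2745. In the SR class SRSF2 (2386) and SRSF1 (2363) stood at the top, and SRRM2 (1192) came next. SRSF11 (266), SRSF4 (256) and SRSF10 (166) were the lowest after SRSF12 (13.7). Replicates varied by a median of 5.45% (SR) and 5.27% (HNRNP) in control libraries, as coefficients of variation, and by at most 18.7% (TRA2A) among SR and 12.6% (HNRNPUL2) among HNRNP entries tested.

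The wider set of splicing regulators was examined through lists of related genes. Among kinases and partners that act on SR proteins, CLK1, CLK4 and CLK2, which phosphorylate SR proteins in the nucleus, and PRPF4B, a spliceosomal kinase, rose. CLK1 ran from 305 to 373 in control and from 525 to 927 after HCF-1 siRNA (1.06 ± 0.09, adjusted p = 2.53e-07). CLK4 had a mean of 102 in control and 209 after HCF-1 siRNA (1.03 ± 0.10, adjusted p = 7.21e-07) and CLK2 of 478 and 713 (0.58 ± 0.06, adjusted p = 7.21e-07), also without overlap. SRPK1 (0.00 ± 0.10 in size), SRPK2 (0.11 ± 0.07), CLK3 and the importin TNPO3 did not pass, and PPP1CA, a catalytic subunit of protein phosphatase 1, fell (-0.37 ± 0.06). In all 4 of 10 rose and 1 fell, against 18.2% and 18.3% of all genes tested, and the median log2 fold change was 0.13.

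The list of coactivators holds mostly proteins with arginine-serine repeats that are not SR proteins in the strict sense. It also holds other splicing factors such as SF1. Here 14 of 26 tested rose and 0 fell, against 18.2% and 18.3% of all genes tested, with a median of 0.18. The groups did not overlap, with HCF-1 siRNA higher, for 9 of them. Of all genes tested 4.59% showed this, as did 402 of 5488 with a mean of at least 1000. The 3 largest changes were in PNN (0.73 ± 0.07, adjusted p = 6.62e-07), RSRC2 (0.73 ± 0.09, adjusted p = 7.12e-06) and ACIN1 (0.71 ± 0.05, adjusted p = 2.70e-08). PNN had a mean of 4427 in control and 7326 after HCF-1 siRNA, and RSRC2 of 943 and 1569. PNN and ACIN1 are partners of RNPS1 at exon junctions, and RNPS1 did not pass (-0.07 ± 0.05). ACIN1 went from a median of 6149 to 10157 normalized counts. Their changes were thus larger than any in the SR class, where the largest was 0.38. The core U2AF1, U2AF2 and SF1, which recognise the 3′ splice site and branch point, did not pass (-0.02, -0.11 and 0.00).

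Relatives of hnRNPs, such as RALY and the PCBP and PTBP proteins, were called no more often than genes in general. Of 20 tested 3 rose and 3 fell, against 18.2% and 18.3% of all genes tested, and the median log2 fold change was -0.01. PTBP2, the neuronal paralog of PTBP1, rose (0.50 ± 0.18, adjusted p = 0.0315) at a low level, with a mean of 149 in control and 211 after HCF-1 siRNA. This call ended in 7 of the 27 alternatives, each leaving out 1 library: control replicate 3, 5, 6 or 8 or else knockdown replicate 1, 5 or 7 (adjusted p 0.0125 to 0.0639). RALY fell from a mean of 11447 to 10113 (-0.18 ± 0.05, adjusted p = 0.00578), and ELAVL1, which stabilises AU-rich mRNA, from 3479.9 to 3079 (-0.18 ± 0.03, adjusted p = 4.36e-04). Among regulators with tissue-dependent roles, 5 of 13 rose and 0 fell, against the same shares of all genes, with a median of 0.13. MBNL2 had a mean of 759 in control and 1249.7 after HCF-1 siRNA (0.72 ± 0.10, adjusted p = 3.79e-05), RBM5 of 1080.1 and 1730.3 (0.68 ± 0.06, adjusted p = 2.53e-07) and TIA1 of 1838 and 2530.5 (0.47 ± 0.06, adjusted p = 2.67e-05). Of factors of nonsense-mediated decay and the exon junction complex, 5 of 14 rose and 3 fell, against 18.2% and 18.3% of all genes tested, with a median of 0.03. The kinase SMG1 rose from a mean of 4005 to 5911 (0.56 ± 0.06, adjusted p = 3.79e-06). UPF3B rose from 268 to 361 (0.43 ± 0.08, adjusted p = 5.56e-04) and UPF2 from 834 to 1014 (0.28 ± 0.06, adjusted p = 0.00251). UPF1 did not pass (0.01 ± 0.05). The exon junction subunits were mixed: EIF4A3 (-0.12 ± 0.04) and RBM8A (-0.15 ± 0.04) fell, CASC3 rose (0.19 ± 0.06) and MAGOH did not pass (-0.13 ± 0.05).

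**Figure D4:**
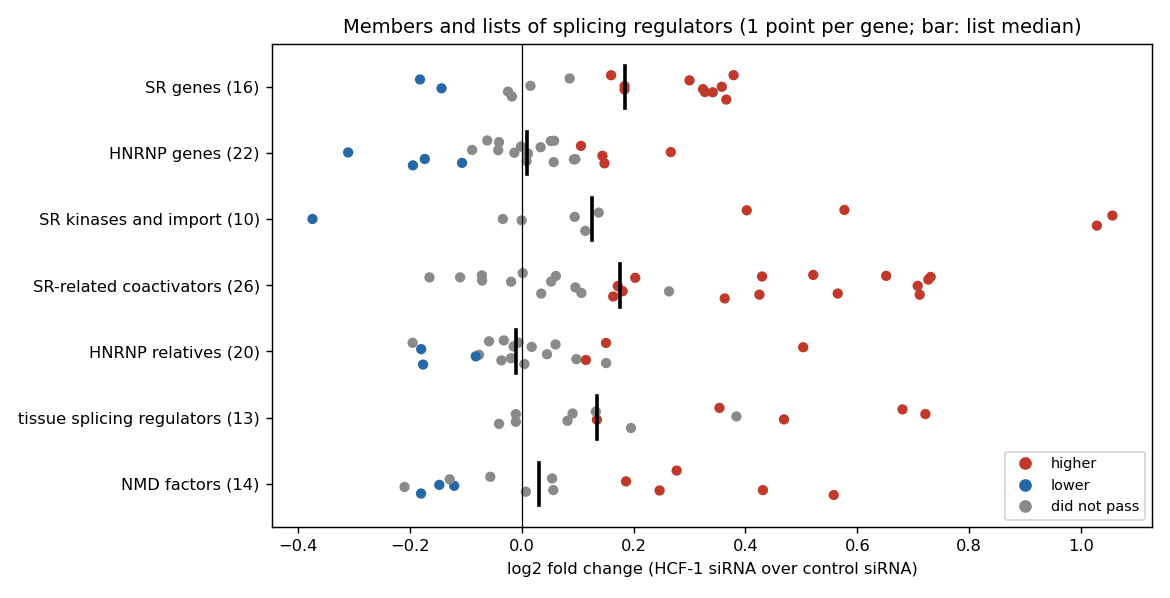
Log2 fold change (x axis, HCF-1 siRNA over control siRNA) of each tested gene in the SR and HNRNP classes and in 5 lists of related splicing and decay factors, 1 point per gene, with the list median as a bar. Red rose, blue fell and grey did not pass. The medians of SR genes (0.18), SR-related coactivators (0.18), SR kinases and import (0.13) and tissue splicing regulators (0.13) lie to the right of 0. Those of HNRNP genes (0.01), HNRNP relatives (-0.01) and NMD factors (0.03) lie near it.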

How the data were processed

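HepG2 RNA was made into stranded mRNA libraries (TruSeq), per the labels' protocols. The authors deposited a normalized count signal for each Ensembl gene in each library. The submitters' processing notes name cutadapt 1.4.2, STAR 2.4.1d, featureCounts 1.4.4, DESeq2 1.16.1 and build hg19. The strand setting, annotation and treatment of reads shared by genes are not stated in the sources used, so overlapping genes may share reads. In every library 100% of values came out as whole reads (within 0.01) when divided by what 1 read is worth there. All per-library columns were used; 1 column name lacks a digit of its library's title.

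Groups were compared with limma 3.58.1 in R 4.3.3 (trend and robust options) on log2(normalized count + 1). Genes needed a mean of 10, and p-values were adjusted by Benjamini-Hochberg over all genes tested. The step was tested on simulated data. On recovered reads edgeR 4.0.16 called 5875 genes and DESeq2 1.42.0 called 6258, against 5879 with limma. The pseudocount understates changes of low genes. Other alternatives were pseudocounts, filters, scalings, array weights, thinned reads, the replicate block and each library left out. Replicate numbers were not used to pair libraries in the main fit. No 2 libraries of the same group agreed within sampling noise.

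Members and lists were chosen with earlier results of these data known, so no p-value is given over a list. Genes were named, by rule, as up to 10 called members per class with a mean of at least 100 in either group and the 2 most abundant that did not pass per class, and up to 3 called genes per other list with a mean of at least 50. Other genes were named after their values were seen.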

Additional observations from a re-analysis of the deposited data

Results flagged for a closer look

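Of 82 sets of 8 values tested, 2 held a single library far from the rest, measured as the gap to its nearest neighbour divided by the full range of the set. Chance flags about 1 in 20 such sets. For TRA2A this was control siRNA replicate 1 with 1470.1 normalized counts, where the remaining controls had 893 to 1162. For HNRNPH1 it was HCF-1 siRNA replicate 7 with 13053 normalized counts, where the remaining libraries of that group had 10071 to 11394; without it the log2 fold change was 0.23 (limma adjusted p = 4.14e-04).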

How the results depend on the processing

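Of 38 members tested, 25 kept their direction and their side of the threshold under all 27 alternatives. The count of SR genes that rose was 9 to 10 and of those that fell 2 throughout. HNRNP genes that rose numbered 2 with no filter and with total-count scaling, and 3 to 5 with 1 library left out. HNRNP genes that fell numbered 2 with no filter, and 3 to 5 with 1 library left out. The replicate block gave 10 SR genes higher and 2 lower, and 3 HNRNP genes higher and 3 lower, as HNRNPR and HNRNPA0 no longer passed. Same-numbered libraries deviated together in only 2 of 8 pairs (correlation -0.13 to 0.138, above 0.1 in those 2), and 1 number matched best both ways, so the numbers were not taken as a pairing. The difference of median log2 fold changes between SR and HNRNP genes was 0.174, and 0.154 to 0.193 over the alternatives. A total of 6 members that did not pass changed sign. SRSF3 was -0.0127 with total-count scaling. HNRNPA1L2 was -0.00555 with upper-quartile scaling, -0.0196 with total-count scaling and -0.014 with thinned reads. HNRNPA3 was 0.00143 with DESeq2 and 0.000495 with thinned reads. HNRNPC was -0.00312 with upper-quartile and -0.0172 with total-count scaling. With 1 library left out, ranges were -0.0147 to 0.178 for SRSF12, -0.0446 to 0.0531 for HNRNPA1L2, -0.0147 to 0.0215 for HNRNPA3, -0.00369 to 0.0227 for HNRNPC and -0.0296 to 0.00451 for HNRNPL. The cause of these shifts was not tested. Depth limits SRSF12 most, with 43 reads in its lowest library.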
